A study of Mus musculus with 12 samples.

Results

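The collagen genes are the 44 genes, of 25887 in the deposited tables, whose mouse symbol has the form Col, a type number, the letter a and a chain number. RNA was sequenced from primary mouse dermal papilla cells sorted by FACS. The dermal papilla is the mesenchyme that sits in the follicle bulb and signals to the hair matrix. P28 Smo* libraries (n = 3) came from males labelled anagen I-III, the early growth stages of the hair cycle, and P28 WT libraries (n = 3) from males labelled anagen VI, the full growth stage. P20 Smo* (n = 3) and P20 WT (n = 3) libraries came from females labelled telogen, the resting stage. Smo* is a gain-of-function form of Smo, the membrane protein that passes on the Hedgehog signal, and was directed to the dermal papilla, per the labels, whereas WT mice are wild type. Which promoter drives it is not given in the sources read here. Genotype and stage differ together at P28, and sex and age differ together between P20 and P28, so neither pair can be told apart. Whether the 3 libraries of a group come from different mice is not stated, and p-values thus reflect library-to-library spread that may be technical.

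Collagens are secreted or membrane proteins of the extracellular matrix in which chains wind around each other into a stiff helix. Fibrillar collagens build the tension-bearing fibrils of the dermis, and FACITs (fibril-associated collagens with interrupted triple helices) sit on the fibril surface. Type IV collagens form the sheet of the basement membrane that separates the papilla from the hair matrix, type VII anchors that sheet to the dermis, and type VI forms beaded filaments around cells. Type XIII, XVII, XXIII and XXV collagens span the cell membrane. By class the 44 genes were 11 fibrillar, 6 basement membrane, 2 multiplexin (Col15a1 and Col18a1, of the basement membrane zone), 1 anchoring fibril, 6 beaded filament, 3 network-forming short chain, 9 FACIT, 4 transmembrane and 2 other genes.

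Each library held 36323058 to 48926831 reads on genes. All 44 collagen genes had a mean normalized count of at least 10 over the 12 libraries, and 42 had a read in every library. Gli1, a direct target of the Hedgehog signal, had 4477 ± 829.9 normalized counts in P20 Smo* and 1515 ± 645 in P20 WT libraries (SD, n = 3 each), and Smo itself 7074 ± 633 and 5099.8 ± 108. At P28 Gli1 had 4258 ± 182 in Smo* and 1487 ± 93.0 in WT libraries. P28 Smo* replicate 3 stood apart, with 15453 genes with a read against 17337 to 17926 in the other 11 libraries. The summed normalized count of 14 dermal papilla markers ran from 48388 in that library to 313170 in P28 Smo* libraries. In P28 WT libraries the sum ran from 364990 to 441810. Of the 14, 6 were called lower and 1 higher in P28 Smo*. Vcan, Wif1 and Corin weigh most in the sum, with means of 126390, 92584 and 73141 in P28 WT and 87312, 53240 and 4252 in P28 Smo*. On the same list, Sox18, Sox2 and Hey1 had higher means in P28 Smo* (1516, 835 and 781) than in P28 WT libraries (381, 336 and 638), and the others lower ones. Since P28 Smo* replicate 3 stood apart, values of P28 Smo* libraries are also given without it where that moved a fold change by over 1.5 times. Leaving it out did so for Col9a1, Col9a2, Col19a1, Col8a2 and Col11a1.

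Fold changes are differences of log2(normalized count + 1), tested with limma over all genes with a mean of at least 10. A gene is called higher or lower where the adjusted p is below 0.05. Values given in each library are normalized counts. This scale understates the change of genes with low counts.

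3 fibrillar genes dominated every library. In reads per kilobase of longest coding transcript and per 1000000 reads on genes, Col1a1, which encodes the main chain of type I collagen, stood at 33857 ± 4968 in P28 Smo* and 24827 ± 3285 in P28 WT libraries, and at 26681 ± 679 in P20 Smo* and 30617 ± 846 in P20 WT libraries (SD, n = 3 each). Col1a2, its partner chain, and Col3a1, the chain of type III collagen of pliable dermis, followed with means over 12 libraries of 17213 and 14548 on this scale. The order of these last 2 rests on the length used, because per kilobase of all merged exons Col3a1 had 8246 and Col1a2 7408. Next on the scale of longest transcripts came Col5a1 with 542, a chain of type V collagen that regulates fibril diameter, then Col6a1 with 508, Col6a2 with 496, Col6a3 with 371 and Col5a2 with 369. Group means ran from 382 to 614 for Col5a1, from 360.1 to 578 for Col6a1 and from 364 to 544 for Col6a2, so the order of these 3 is within their spread, as is that of Col6a3 and Col5a2. The lowest means were 0.151 for Col6a4, 0.161 for Col25a1 and 0.234 for Col22a1.

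**Figure D1:**
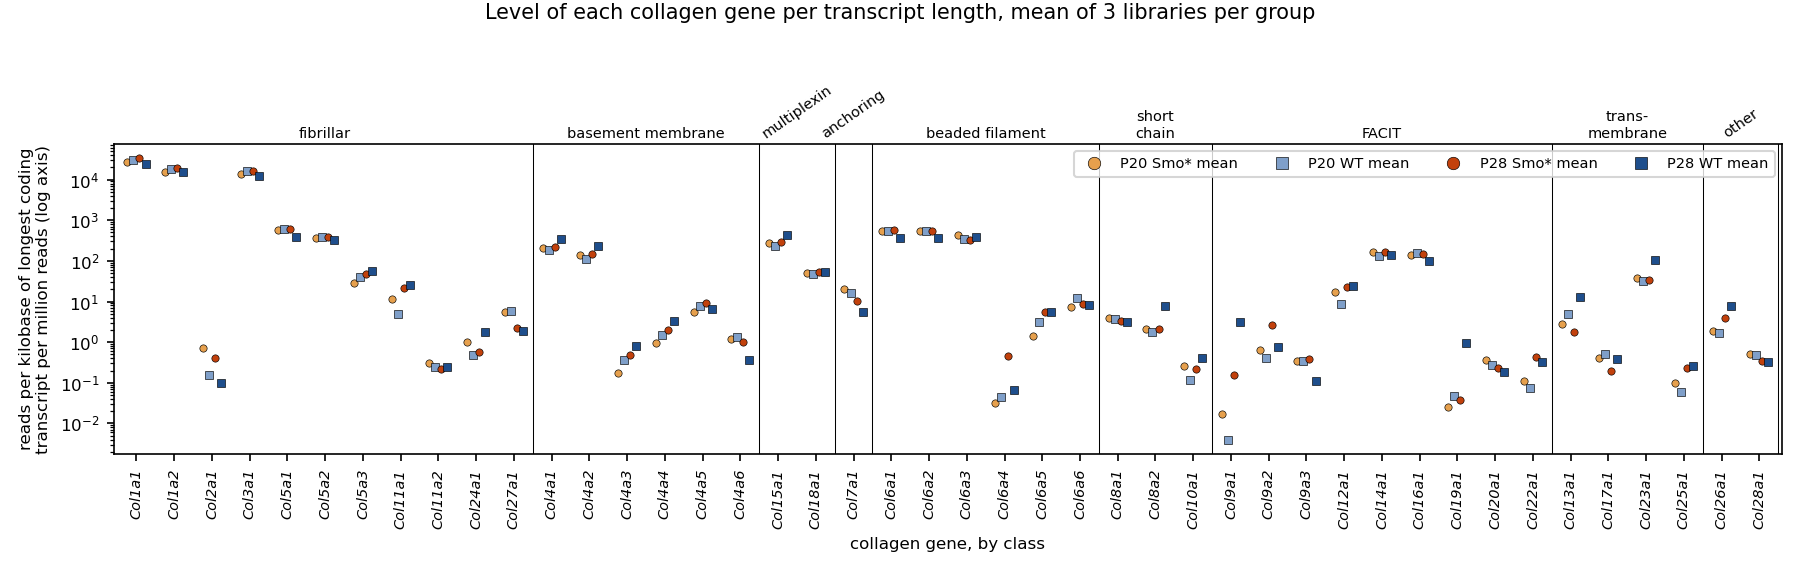
Level of each of the 44 collagen genes by class, in reads per kilobase of the longest coding transcript per 1000000 reads on genes (log axis); each point is the mean of 3 libraries of a group. Col1a1, Col1a2 and Col3a1 lie far above the other genes in all 4 groups, while Col9a1 and Col19a1 stand higher in P28 WT than in the other 3 groups.

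Collagen genes took 34.6, 33.5 and 33.0% of the reads on genes in P20 Smo* libraries, against 38.3, 39.5 and 39.7% in P20 WT libraries. In P28 Smo* libraries the share was 42.1, 37.7 and 46.0%, against 34.8, 34.2 and 27.7% in P28 WT libraries. The groups did not overlap at either age, with Smo* below WT at P20 and above WT at P28. The means differed by -5.44 percentage points at P20 and by 9.69 at P28 (Smo* minus WT, two-sided exact permutation test, p = 0.1 each, the smallest that 3 against 3 libraries allow). The difference between the ages was 15.1 points, with p = 0.005 when labels were exchanged within each age in an exact permutation test, the smallest p that this design gives. In bulk RNA, fewer cells of a type and less RNA per cell cannot be told apart. The summed count of 10 dermal fibroblast markers, Lum, Dpt and Dcn among them, was 318350 to 376020 in P20 Smo* and 432170 to 493840 in P20 WT libraries, and 403020 to 561730 in P28 Smo* and 251410 to 461980 in P28 WT libraries, and its part in the collagen values was not tested.

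Col1a1, Col1a2 and Col3a1 carried this pattern. Together they held 32.3, 31.1 and 30.8% of the reads in P20 Smo* libraries against 36.2, 37.2 and 37.4% in P20 WT libraries, and 40.0, 35.3 and 43.6% in P28 Smo* libraries against 32.5, 32.3 and 25.4% in P28 WT libraries. The other 41 genes together held only 2.14, 2.40 and 2.36% in P28 Smo* and 2.34, 1.98 and 2.26% in P28 WT libraries, and their groups overlapped at both ages. The normalized count of Col1a1 was 6557656, 6008240.5 and 5824818 in P20 Smo* libraries, against 8585221, 7800098 and 8378149 in P20 WT libraries. At P28 it was 9241069, 7558542 and 11210347 in P28 Smo* libraries, against 6470621, 6973797 and 4552449 in P28 WT libraries. Both sets of libraries are apart, in opposite directions. Col1a2 had 3420536, 2958321 and 3026096 in P20 Smo* libraries, against 4341037, 4528739 and 4497555 in P20 WT libraries, and 5561045, 4064307 and 5172254 in P28 Smo* libraries, against 3719110.3, 3944861 and 2512583 in P28 WT libraries. Col3a1 had 3170536, 2706169.9 and 2816825 in P20 Smo* libraries, against 3818432, 4178270.4 and 4224426 in P20 WT libraries, and 4551908, 3385452 and 4525508 in P28 Smo* libraries, against 3370270.1, 2995395 and 2180874 in P28 WT libraries. At each age their Smo* and WT groups lay in the same order as those of Col1a1, with no overlap. The fold changes of Col1a1, Col1a2 and Col3a1 were -0.43, -0.51 and -0.49 at P20 and 0.64, 0.56 and 0.55 at P28, none of them called by limma (adjusted p = 0.848, 0.738 and 0.739, then 0.855, 0.822 and 0.803). The mean-variance trend gives these 3 genes, at the far end of the scale, SEs of up to 1.83. DESeq2 on the recovered reads called all 3 lower at P20 (adjusted p = 0.0135, 0.00195 and 0.00624) and Col1a1 higher at P28 (adjusted p = 0.0253, against 0.0635 for Col1a2 and 0.0519 for Col3a1). In the authors' deposited table none of the 3 passed at P20 (adjusted p = 0.33, 0.151 and 0.165) and all 3 passed as higher in Smo* at P28 (adjusted p = 0.00585, 0.0223 and 0.0189).

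**Figure D2:**
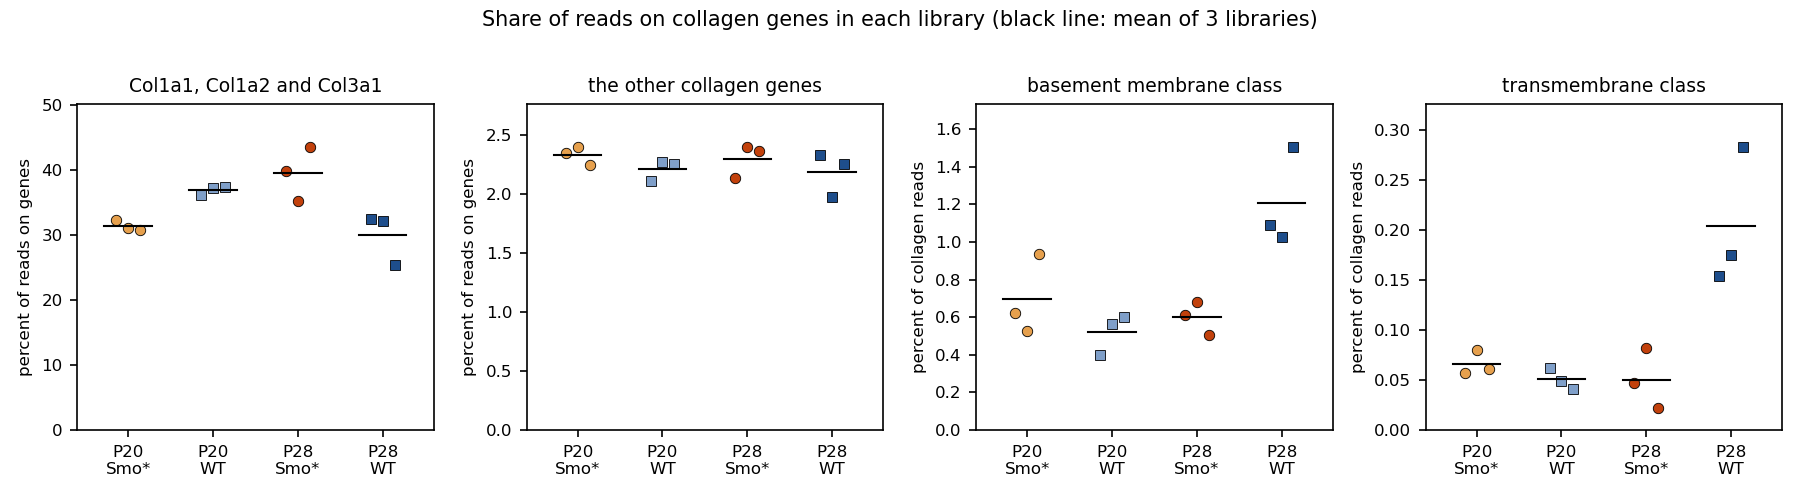
Percent of reads on genes taken by Col1a1, Col1a2 and Col3a1 and by the other 41 collagen genes (left pair), and percent of collagen reads taken by the basement membrane and transmembrane classes (right pair), in each of the 12 libraries, with the group mean as a line. The 3 fibrillar genes differ in opposite directions between Smo* and WT at the 2 ages, and both class shares are highest in P28 WT libraries.

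Within the collagen reads the fibrillar class held 93.8 to 96.8% in every library. The basement membrane class took 0.609, 0.683 and 0.506% of collagen reads in P28 Smo* libraries, against 1.09, 1.02 and 1.51% in P28 WT libraries. The transmembrane class took 0.0473, 0.0816 and 0.0221% in P28 Smo* and 0.154, 0.175 and 0.283% in P28 WT libraries. Both shares were lower in Smo* with no overlap (exact permutation p = 0.1 each), and the dominant fibrillar genes enter their denominator. As percent of reads on genes, both were also lower in P28 Smo* with no overlap (exact permutation p = 0.1 each). These shares rest on few genes. In P28 WT replicate 1, Col4a1 and Col4a2 had 109452 and 71460 reads, against 2456 for Col4a5, the next type IV gene. Col23a1 had 24079 reads there, against 2032 for Col13a1, the next transmembrane gene. The called type IV genes, Col4a5 and Col4a6, were higher in P28 Smo*, and the groups of Col17a1 and Col25a1 overlapped. At P20 both class shares overlapped between Smo* and WT. Classes whose groups did not overlap at P20 were the fibrillar, with 95.5, 95.1 and 95.4% in Smo* against 96.5, 96.3 and 96.4% in WT libraries, the beaded filament, with 2.64, 2.96 and 2.55% in Smo* against 2.17, 2.19 and 2.10% in WT, the multiplexin, with 0.514, 0.582 and 0.416% in Smo* against 0.355, 0.396 and 0.383% in WT, and the FACIT, with 0.572, 0.696 and 0.514% in Smo* against 0.468, 0.439 and 0.451% in WT (exact permutation p = 0.1 each). The fibrillar share was lower in P20 Smo* and the other 3 higher. The dominant fibrillar genes, lower in P20 Smo*, enter the denominator of these shares too. As percent of reads on genes, the beaded filament, multiplexin and FACIT groups overlapped at P20 (exact permutation p = 0.2, 0.3 and 0.4). At P28 the multiplexin share was also lower in Smo*, with 0.384, 0.583 and 0.327% in Smo* against 0.684, 0.620 and 1.12% in WT libraries, as were those of the short-chain genes and of the 2 other genes, and that of Col7a1 was higher, each without overlap (exact permutation p = 0.1). The fibrillar, beaded filament and FACIT shares overlapped. As percent of reads on genes, the multiplexin groups overlapped at P28 (exact permutation p = 0.2). The fibrillar and FACIT groups did not overlap on that measure, with Smo* higher (exact permutation p = 0.1 each).

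In telogen few collagen genes passed the test between Smo* and WT. Of the 42 collagen genes tested at P20, 2 were called higher and 0 lower, against a background of 0.696% of the 14645 genes tested. Col2a1, the chain of the fibrils of cartilage, had 121, 189.9 and 120.5 in P20 Smo* libraries, against 27.1, 51.0 and 27.9 in P20 WT libraries, and the groups did not overlap. Its fold change was 2.02 ± 0.34 (SE), adjusted p = 0.0446. Col12a1, a FACIT of dense connective tissue, had 8293, 8267 and 6568 in P20 Smo* libraries, against 4127, 4166 and 5077 in P20 WT libraries, again with no overlap, and its fold change was 0.79 ± 0.14 (SE), adjusted p = 0.0496. Unadjusted, 10 of the 42 genes had p below 0.05, as did 1669 of all 14645 genes tested. The fold change was below 0 for 29 and above 0 for 13 genes, with a median of -0.14 over the collagen genes and 0.0025 over all genes tested. Smo* libraries lay below all WT libraries for 13 collagen genes and above them for 2, where 8.34% and 8.04% of all genes did so (16.4% in all). By direction, limma called 0.485% of all genes higher and 0.212% lower. Among the 13 were Col13a1, a transmembrane collagen, at -1.07 ± 0.24 (SE), adjusted p = 0.113, and Col5a3 at -0.71 ± 0.18 (SE), adjusted p = 0.146. With a block for libraries of the nearest title numbers, which the labels do not state as pairs, these last 2 were called (adjusted p = 0.0191 and 0.0241) and Col12a1 was not (0.0524). The 6 chondrocyte markers summed to 648 to 1370.3 in P20 Smo* and 386 to 483 in P20 WT libraries, and 0 of the 3 tested were called. Acan had a mean of 686 in P20 Smo* and 160.1 in P20 WT libraries and Sox9 348 and 261, while Cnmd had 20.1 and 22.5, Matn3 and Snorc had few reads and Matn1 was at 0 in all 12 libraries. Their part in the result was not tested. The Col2a1 call was lost when any of the 6 libraries was left out (fold change 1.80 to 2.31, adjusted p = 0.0640 to 0.185), and the Col12a1 call when any but P20 Smo* replicate 3 was left out (0.73 to 0.89, adjusted p up to 0.198). DESeq2 called 11 collagen genes, 2 higher and 9 lower (background 3.34%), edgeR called 0 (0.635%) and 4 were called in the authors' deposited table (2.13%). These 4 were Col2a1 and Col12a1, higher in Smo*, and Col13a1 and Col6a6, lower.

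At P28 collagen genes were called in both directions. Of the 44 genes, 7 were called higher and 6 lower in Smo* (background 8.9% of 14757 genes, 4.05% higher and 4.85% lower), with a median fold change of 0.21 against -0.01 over all genes. The 6 lower genes were the FACITs Col9a1 and Col19a1, the transmembrane Col13a1 and Col23a1, the short-chain Col8a2 and the fibrillar Col24a1. The 7 higher genes were Col2a1, the basement membrane chains Col4a5 and Col4a6, the beaded filament chains Col6a1 and Col6a4, the anchoring fibril gene Col7a1 and the FACIT Col16a1. Smo* libraries lay above all WT libraries for 16 collagen genes and below them for 8, against 15.6% and 17.8% of all genes (33.4% in all). DESeq2 called 21 collagen genes (background 16.3%), edgeR 13 (9.05%), and 20 were called in the authors' deposited table (16.8%).

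Col9a1, a chain of the type IX collagen that coats cartilage fibrils, had 19.8, 55.0 and 2.14 in P28 Smo* libraries, against 383, 373 and 692 in P28 WT libraries. In P20 libraries it was all but absent, with 6.20, 0.871 and 0.913 in Smo* and 0, 1.04 and 0.964 in WT. P28 WT libraries stood above all the others. Its P28 fold change was -4.91 ± 0.92 (SE), adjusted p = 0.0163, and 78 reads in P28 Smo* set against 1514 in P28 WT libraries gave a ratio of 0.0481 per read on genes (95% interval 0.0378 to 0.0604, counting error only). Without P28 Smo* replicate 3 the fold change was -3.76 (adjusted p = 0.00169), and without P28 Smo* replicate 2 it was -5.84 (adjusted p = 0.0049). The call was lost without P28 WT replicate 2 or P28 WT replicate 3 (adjusted p up to 0.0738), and without the variance trend. The authors' deposited table gives no adjusted p for Col9a1 at P28. The fold changes of the other type IX chains were above 0. Col9a2 had 473, 507 and 94.1 in P28 Smo* libraries, against 62.3, 71.3 and 128 in P28 WT libraries and Col9a3 55.1, 45.5 and 59.9 in P28 Smo* libraries, against 11.9, 22.6 and 7.37 in P28 WT libraries, neither called (fold changes 1.76 and 1.99, adjusted p = 0.125 and 0.0522). Without P28 Smo* replicate 3, Col9a2 was called, at 2.55 (adjusted p = 0.00217). Matn3, a cartilage matrix gene on the list of chondrocyte markers, had a mean of 0.948 in P28 Smo* and 33.4 in P28 WT libraries. At P20 its means were 0.885 in Smo* and 1.79 in WT libraries. Acan and Sox9 of that list had higher means in P28 Smo* (1448 and 185) than in P28 WT libraries (741 and 104). The 6 markers of the list summed to 1331 to 2092 in P28 Smo* and 751 to 1052.5 in P28 WT libraries. The part of these markers in the Col9a1 result was not tested. Col9a3 shares 234 exon bases with Tcfl5 on the opposite strand, and use of strand in counting is not stated.

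Col19a1, a FACIT of basement membrane zones, had 13.2, 9.48 and 0 in P28 Smo* libraries, against 95.6, 173 and 206 in P28 WT libraries, and its groups were far apart. The fold change was -4.84 ± 0.97 (SE), adjusted p = 0.021. It was -3.63 without P28 Smo* replicate 3 (adjusted p = 0.00137), where the gene had no read, and -5.55 without P28 Smo* replicate 1 (adjusted p = 0.0261). The Col19a1 call was lost without any 1 of the 3 P28 WT libraries (adjusted p up to 0.0992), and without the variance trend. Col13a1, a membrane collagen of cell-matrix contacts, had 307, 271 and 176 in P28 Smo* libraries, against 1734, 1707 and 1382 in P28 WT libraries, and the groups were far apart. Its fold change was -2.70 ± 0.22 (SE), adjusted p = 4.82e-04. Col23a1, another membrane collagen, had 9162, 12713 and 4609 in P28 Smo* libraries, against 20550.1, 23924 and 27012 in P28 WT libraries, and the Smo* libraries were wide apart but all below WT. Its fold change was -1.54 ± 0.33 (SE), adjusted p = 0.0277. The other 2 transmembrane genes, Col17a1 of the epithelial hemidesmosome and Col25a1, were not called (-0.69 and -0.12, adjusted p = 0.368 and 0.896).

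Col8a2, a chain of the hexagonal lattice of type VIII collagen, had 459.5, 649 and 140.1 in P28 Smo* libraries, against 1344, 1324 and 1344 in P28 WT libraries. WT libraries lie close together, while Smo* replicate 3 is the lowest. The fold change was -1.94 ± 0.48 (SE), adjusted p = 0.0453, and -1.29 without that replicate (adjusted p = 0.00225). The Col8a2 call was lost in 4 of the 6 fits with 1 library left out (adjusted p up to 0.142). It was also lost without the variance trend and with edgeR. Col24a1, a fibrillar chain known from bone, had 126, 178 and 252 in P28 Smo* libraries, against 424, 552 and 557 in P28 WT libraries, with a fold change of -1.50 ± 0.27 (SE), adjusted p = 0.0139. The 6 lower genes stood beside 14 dermal papilla markers of which 6 were called lower and 1 higher in P28 Smo*, as given above. The part of those markers in the result was not tested.

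Among the higher genes, Col6a4, a long beaded filament chain, had 228, 136 and 111 in P28 Smo* libraries, against 12.8, 26.1 and 20.3 in P28 WT libraries. P28 Smo* was the only group in which every library exceeded 100 normalized counts. Its fold change was 2.93 ± 0.42 (SE), adjusted p = 0.00541. Col7a1, the anchoring fibril chain, had 3564, 4017 and 5583 in P28 Smo* libraries, against 2286, 2178 and 1604 in P28 WT libraries, a fold change of 1.11 ± 0.20 (SE), adjusted p = 0.0149. Col16a1, a FACIT of the papillary dermis, had 32019, 32830.0 and 40620.4 in P28 Smo* libraries, against 22586, 20936 and 17521 in P28 WT libraries, with the groups well apart and a fold change of 0.79 ± 0.17 (SE), adjusted p = 0.0266. Col2a1 had 93.7, 65.4 and 125 in P28 Smo* libraries, against 12.8, 19.0 and 27.6 in P28 WT libraries, at low counts as in telogen, with a fold change of 2.22 ± 0.44 (SE), adjusted p = 0.0198. The chondrocyte markers Acan and Sox9 had means of 1448 and 185 in P28 Smo* and of 741 and 104 in P28 WT libraries. On the same list, Matn3 had means of 0.948 in P28 Smo* and 33.4 in P28 WT libraries, and Cnmd 18.0 and 15.5. Of the 4 chondrocyte markers tested at P28, 1 was called higher and 1 lower. The 7 endothelial markers summed to 3316 to 5548 in P28 Smo* and 1673 to 3274 in P28 WT libraries, and 2 of the 7 were called higher and 0 lower. Cdh5 had a mean of 1817 in P28 Smo* and 94.1 in P28 WT libraries, Pecam1 275 and 92.4, and Emcn 30.1 and 3.64. The part of these markers in the values of the higher genes was not tested.

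The genes called at P28 were also read at P20, where limma called none but Col2a1. In the authors' deposited table Col13a1 also passed at P20, lower in Smo* (adjusted p = 0.00497). The 6 that were lower in P28 Smo* stood as follows in telogen. Col13a1 had 318, 253 and 462 in P20 Smo* libraries, against 579.9, 690.0 and 859.5 in P20 WT libraries, with Smo* below WT there too. Col23a1 had 7553, 9721 and 7077 in P20 Smo* libraries, against 10335, 7791 and 6331 in P20 WT libraries, and the groups overlapped. Col8a2 had 230.3, 301 and 509 in P20 Smo* libraries, against 261, 289 and 502 in P20 WT libraries, Col24a1 179.7, 122 and 532 in P20 Smo* libraries, against 62.2, 132 and 275 in P20 WT libraries and Col19a1 1.03, 6.97 and 4.56 in P20 Smo* libraries, against 12.4, 8.33 and 6.75 in P20 WT libraries. The Col8a2 and Col24a1 groups overlapped, and Col19a1, below the filter at P20, had few reads in either group.

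Of the genes higher in P28 Smo*, Col4a6 had 402, 294 and 238 in P20 Smo* libraries, against 319.9, 338 and 545 in P20 WT libraries and Col4a5 1736, 1163 and 1418 in P20 Smo* libraries, against 1713, 2316 and 2925 in P20 WT libraries, and both pairs of groups overlapped. Col7a1 had 5294, 5007 and 11481 in P20 Smo* libraries, against 6216, 5848 and 8661 in P20 WT libraries and Col6a4 5.16, 16.6 and 4.56 in P20 Smo* libraries, against 27.1, 14.6 and 3.85 in P20 WT libraries, again overlapping, with Col6a4 close to absent in telogen. Col12a1, called at P20, had 11473, 14959.7 and 8669 in P28 Smo* libraries, against 10690.2, 12971 and 9178 in P28 WT libraries at P28, where the groups overlapped (0.08 ± 0.22 (SE), adjusted p = 0.857).

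Leaving out 1 library ended 10 of the 13 calls for P28 WT replicate 2, 9 for P28 WT replicate 3, 5 for P28 Smo* replicate 1, 4 for P28 WT replicate 1, 2 for P28 Smo* replicate 2 and 1 for P28 Smo* replicate 3, and the count of called genes ran from 3 to 14. Col13a1, Col4a6 and Col6a4 kept their calls with each library left out and under every other setting tried.

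**Figure D3:**
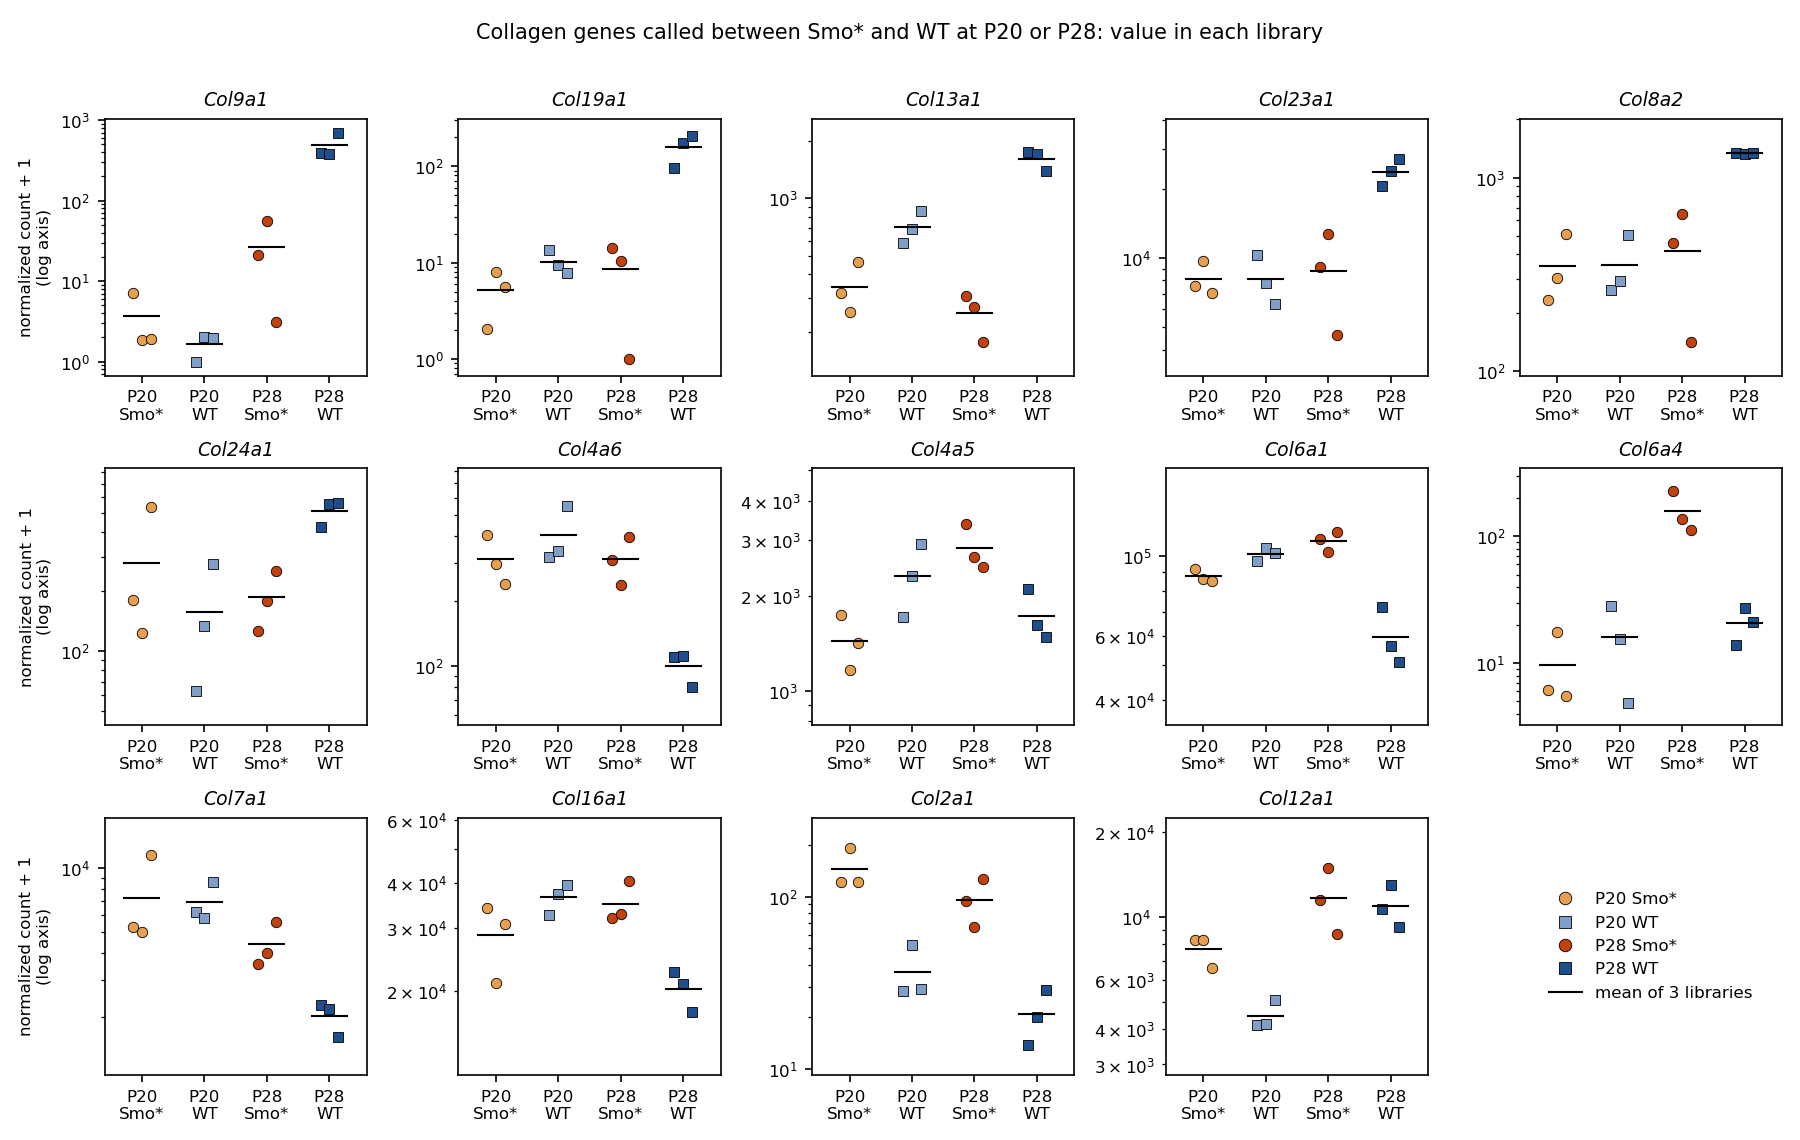
Normalized count plus 1 (log axes, a range per panel) of the 14 collagen genes called between Smo* and WT at P20 or P28, in each of the 12 libraries, with the mean of 3 libraries as a line. The 6 genes lower in P28 Smo* (Col9a1 to Col24a1) have their highest group mean in P28 WT, and Col4a6, Col6a1, Col7a1 and Col16a1 their lowest.

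The type IV genes lie in 3 head-to-head pairs in the genome (GRCm38), each pair transcribed apart from a shared start region. Col4a1 and Col4a2 on chromosome 8 have annotated 5′ ends that overlap by 22 bases, Col4a3 and Col4a4 on chromosome 1 have 71 bases between them, and Col4a5 and Col4a6 on chromosome X have 1308. Col4a1 and Col4a2, the chains of the common basement membrane network, had 73191, 62203 and 64080.4 in P28 Smo* libraries, against 93411, 86812 and 90706 in P28 WT libraries for Col4a1 and 45764, 43591 and 43631 in P28 Smo* libraries, against 60987, 61327 and 57733 in P28 WT libraries for Col4a2. Smo* libraries lay below WT for both, and neither was called (-0.44 ± 0.19 (SE), adjusted p = 0.183 and -0.44 ± 0.16 (SE), adjusted p = 0.131). Reads in the 22 shared bases cannot be assigned without strand.

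Col4a6 had 307, 237 and 396 in P28 Smo* libraries, against 109, 110.5 and 79.2 in P28 WT libraries, with all Smo* libraries above all WT libraries, and a fold change of 1.63 ± 0.26 (SE), adjusted p = 0.00892. Col4a5, its partner in the pair and in the trimer, had 3383, 2652 and 2466 in P28 Smo* libraries, against 2096, 1611 and 1476 in P28 WT libraries, with a fold change of 0.72 ± 0.17 (SE), adjusted p = 0.0414. Both were called higher at P28 in Smo*, against fold changes of -0.35 and -0.67 at P20 (adjusted p = 0.671 and 0.269). Col4a3 and Col4a4, chains that pair with Col4a5 in other basement membranes, were below 0 at both ages and not called (-1.19 and -0.82 at P20, -0.60 and -0.60 at P28, adjusted p from 0.184 to 0.394).

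For type VI collagen, Col6a1, Col6a2 and Col6a3 encode the chains of the common filament and Col6a4, Col6a5 and Col6a6 alternatives to the third of them. Col6a1 had 110744, 102254 and 116040.4 in P28 Smo* libraries, against 72029.8, 56254 and 50954 in P28 WT libraries, and Smo* lay above WT in all libraries (0.89 ± 0.22 (SE), adjusted p = 0.0411). Col6a2 had 111508, 114143 and 124939 in P28 Smo* libraries, against 80185, 61404 and 63456 in P28 WT libraries, also with no overlap but not called (0.78 ± 0.21 (SE), adjusted p = 0.0606). Col6a3 had 149629.6, 151463 and 152656 in P28 Smo* libraries, against 171585, 154740.1 and 140972 in P28 WT libraries, and its groups overlapped (-0.04 ± 0.25 (SE), adjusted p = 0.94).

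Ratios of 2 chains within a library do not depend on its scaling. Per longest transcript the ratio of Col6a1 to Col6a2 was 0.911 to 1.13 in the 12 libraries. The ratio of Col6a3 to Col6a1 was 0.548, 0.601 and 0.534 in P28 Smo* libraries, against 0.966, 1.12 and 1.12 in P28 WT libraries, with no overlap. At P20 it was 0.793, 0.857 and 0.662 in Smo* and 0.722, 0.602 and 0.630 in WT libraries, which overlapped. The Smo* minus WT difference of the log2 ratio was -0.93 at P28 (exact permutation p = 0.1) and 0.24 at P20 (exact permutation p = 0.2). The difference between the ages was -1.17 (exact permutation p = 0.01, 0.06 after adjustment over the 6 ratios compared). Col5a1 to Col5a2, chains of type V collagen, stood at 1.30, 1.47 and 1.77 in P28 Smo* libraries, against 1.21, 1.19 and 1.09 in P28 WT libraries, and its difference between the ages was 0.41 on the log2 scale (exact permutation p = 0.02, adjusted 0.06). Col8a1 to Col8a2 ranged most widely, with 2.203, 0.693 and 4.19 in P28 Smo* and 0.447, 0.273 and 0.456 in P28 WT libraries (difference of the log2 ratio 2.28, exact permutation p = 0.1). Col1a1 to Col1a2 lay between 1.499 and 1.95 in the 12 libraries, and its Smo* minus WT difference of the log2 ratio was 0.080 at P20 and 0.088 at P28 (exact permutation p = 0.3 and 0.6).

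**Figure D4:**
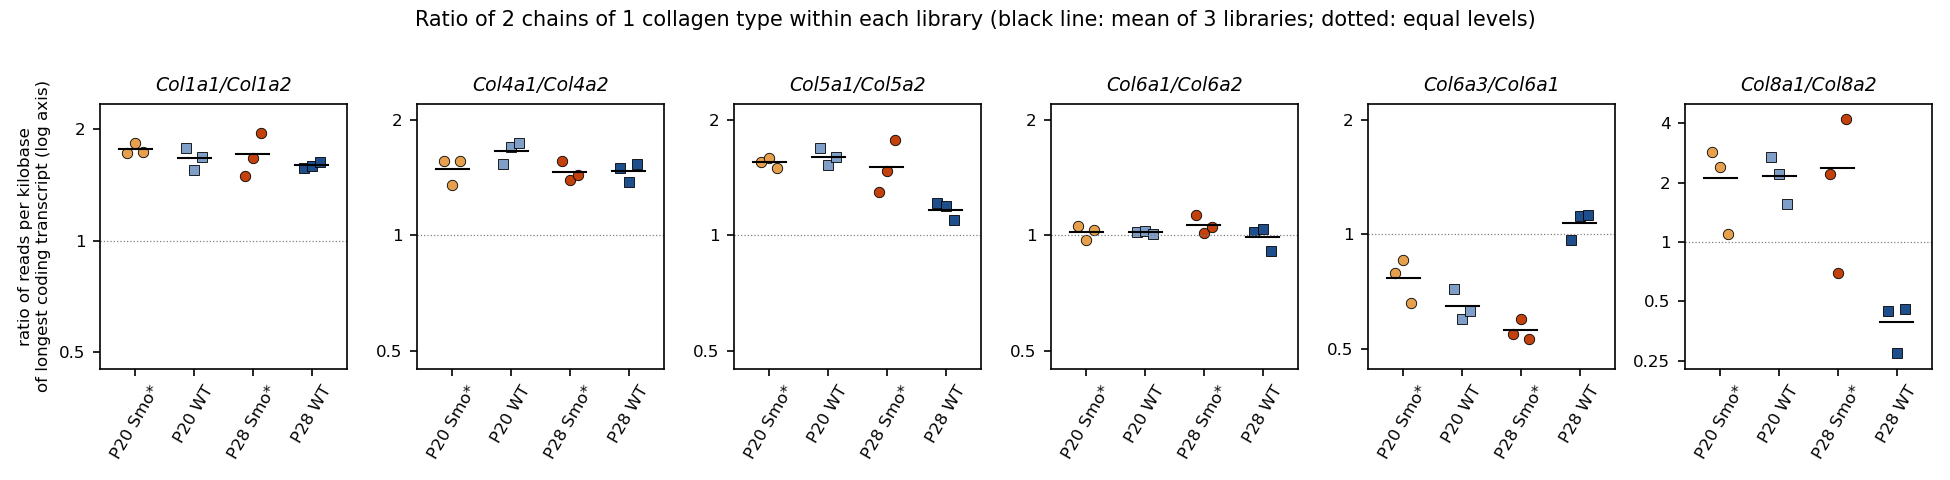
Ratio of 2 chains of the same collagen type in each of the 12 libraries, per kilobase of longest coding transcript (log axes), with the group mean as a line and a dotted line at equal levels. Col6a3 to Col6a1 is highest in P28 WT libraries and lowest in P28 Smo*, and Col8a1 to Col8a2 falls below 1 in all P28 WT libraries.

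The bases upstream of the start are shown for 5 genes called at P28 that have a RefSeq start and no annotated exon there, since genes that move together invite a look at their promoters. Each line holds the 250 bases before the start, 5′ to 3′ in the gene's direction, from RefSeq on GRCm38.p6, with motif matches in capitals. Col9a1 (chr1:24177360-24177609, plus strand), Col13a1 (chr10:61979109-61979358, minus strand) and Col23a1 (chr11:51289670-51289919, plus strand) were lower in P28 Smo*, whereas Col4a6 (chrX:141474077-141474326, minus strand) and Col7a1 (chr9:108953336-108953585, plus strand) were higher.
Col9a1: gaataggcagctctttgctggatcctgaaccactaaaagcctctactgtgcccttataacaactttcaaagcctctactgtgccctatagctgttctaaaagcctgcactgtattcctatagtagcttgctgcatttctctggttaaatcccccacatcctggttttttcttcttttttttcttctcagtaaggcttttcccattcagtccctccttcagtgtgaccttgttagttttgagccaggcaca
Col13a1: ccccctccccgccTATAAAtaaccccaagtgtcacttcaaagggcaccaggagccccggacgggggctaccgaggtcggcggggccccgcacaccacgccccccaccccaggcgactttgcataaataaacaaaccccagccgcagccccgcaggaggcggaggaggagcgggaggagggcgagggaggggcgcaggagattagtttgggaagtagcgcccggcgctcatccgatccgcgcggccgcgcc
Col23a1: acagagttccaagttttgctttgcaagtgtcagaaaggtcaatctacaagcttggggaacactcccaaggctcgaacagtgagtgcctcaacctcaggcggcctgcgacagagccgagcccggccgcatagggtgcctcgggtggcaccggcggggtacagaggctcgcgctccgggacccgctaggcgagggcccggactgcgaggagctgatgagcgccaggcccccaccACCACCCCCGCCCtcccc
Col4a6: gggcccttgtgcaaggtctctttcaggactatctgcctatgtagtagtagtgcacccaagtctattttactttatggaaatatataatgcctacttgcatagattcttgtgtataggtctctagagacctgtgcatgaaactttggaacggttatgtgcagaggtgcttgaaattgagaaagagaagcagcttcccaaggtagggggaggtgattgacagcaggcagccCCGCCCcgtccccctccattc
Col7a1: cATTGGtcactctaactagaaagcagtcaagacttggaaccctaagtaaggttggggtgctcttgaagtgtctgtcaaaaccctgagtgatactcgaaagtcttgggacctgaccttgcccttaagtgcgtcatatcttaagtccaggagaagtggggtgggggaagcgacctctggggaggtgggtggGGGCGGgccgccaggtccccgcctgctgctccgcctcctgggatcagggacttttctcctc

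4 kinds of letters were searched on both strands in the 38 promoters of 35 collagen genes and in all 32851 RefSeq promoters of 300 bases, which hold 50 bases after the start beside the 250 before it. The GC box gggcgg, a site of Sp1-like factors, was in 23 of the 38 (60.5%) and in 35.7% of all promoters. The ccaat box was in 13 (34.2%) and in 37.4% of all, and the tata box tataaa in 5 (13.2%) and in 13.6% of all. The letters gaccaccca, bound by the GLI factors of the Hedgehog pathway, were in 0 of the 38 and in 0.253% of all promoters. Their core accaccc was in 1, that of Col23a1, where it abuts a GC box, and in 4.61% of all. In the printed bases, Col13a1 holds the letters of a tata box, Col4a6 those of a GC box and Col7a1 those of a ccaat and a GC box. This start of Col9a1, 1 of 2 in RefSeq, holds none of these letters. Letters were matched at any distance from the start, so a match does not show a working site. Col24a1, also called at P28 with no annotated exon in these bases, is not printed and had 0 matches.

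The Smo* effect itself differed between P28 and P20 for 7 of the 44 genes in a fit of all 12 libraries, 5 with a larger value at P28 and 2 with a smaller one (background 4.72% of 14790 genes, 1.89% larger and 2.83% smaller). DESeq2 called 18 (10.2%) and edgeR 8 (4.41%). Col4a6 (1.98 ± 0.38 (SE), adjusted p = 0.0152) and Col4a5 (1.39 ± 0.30 (SE), adjusted p = 0.024), Col6a1 (1.10 ± 0.23 (SE), adjusted p = 0.0214) and Col6a2 (0.9957 ± 0.23 (SE), adjusted p = 0.0291) and Col16a1 (1.16 ± 0.26 (SE), adjusted p = 0.0284) made up the first set. Col9a1 (-5.80 ± 1.31 (SE), adjusted p = 0.0291) and Col13a1 (-1.63 ± 0.35 (SE), adjusted p = 0.0235) made up the second. At P20, Col6a1 had 91628, 86064 and 85150.4 in P20 Smo* libraries, against 96854, 105158 and 101816 in P20 WT libraries, Col6a2 had 98108, 100377 and 93473 in P20 Smo* libraries, against 107873, 115928 and 114677 in P20 WT libraries and Col16a1 had 34204, 21058 and 30779 in P20 Smo* libraries, against 32593, 37474 and 39606 in P20 WT libraries. Smo* lay below WT for both type VI genes there, by less than the test resolves, and the Col16a1 groups overlapped. Quantile normalization alone of the scalings turned the P20 sign of Col6a1 and Col6a2, to 0.060 and 0.0026. Leaving out P20 WT replicate 2 or P28 WT replicate 2 ended 6 of the 7 calls each, and P20 WT replicate 3 or P28 WT replicate 3 ended 5. The count ran from 1 to 9 over the 12 libraries, and Col4a6 was called each time. For Col9a1 the value was -4.66 without P28 Smo* replicate 3, -6.74 without P28 Smo* replicate 2 and -5.16 without P20 Smo* replicate 1 (adjusted p = 0.0173, 0.00984 and 0.0539).

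Between the ages, WT libraries differed for 24 of the 44 collagen genes, 16 higher and 8 lower at P28 (background 25.4% of 14790 genes, 13.5% higher and 11.9% lower). Non-overlapping groups were found for 18 genes higher and 14 lower, against 23.6% and 21.6% of all genes (45.1% in all). DESeq2 called 28 (29.5%) and edgeR 24 (25.3%). In Smo* libraries 6 genes were higher and 0 lower at P28 (background 3.46%, 1.98% higher and 1.47% lower), and 15 higher and 1 lower without overlap (12.2% and 12.1% of all genes, 24.4% in all). DESeq2 called 16 (10.9%) and edgeR 10 (4.25%). These comparisons share libraries with those above, so their values are only set side by side.

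The greatest difference between P28 and P20 in WT was that of Col9a1, with 1514 reads in P28 WT and 2 in P20 WT libraries, a ratio of 795 per read on genes, with a 95% counting interval of 220 to 6568. Its fold change was 8.19 ± 0.93 (SE), adjusted p = 9.32e-05 in WT, beside 2.38 ± 0.93 (SE), adjusted p = 0.155 in Smo*. Without P28 Smo* replicate 3 the Smo* value was 3.53 (adjusted p = 0.0133), which passed the test. Col19a1 had 3.94 in WT and 0.24 in Smo* (adjusted p = 0.00773 and 0.902), and 1.45 (adjusted p = 0.175) in Smo* without that replicate. For Col8a2 the pair was 1.99 and 0.08 (0.00873 and 0.937), with 0.73 (adjusted p = 0.196) in Smo* without that replicate, and for Col23a1 1.57 and 0.02 (0.00292 and 0.983). These 4 genes were thus called higher at P28 in WT and were not called in Smo* with all libraries. The difference between the genotypes is the Smo* effect tested above, which with all libraries was called for Col9a1 alone of the 4. For Col23a1 it was -1.55 (adjusted p = 0.0591), and -1.14 (adjusted p = 0.04999) without P28 Smo* replicate 3, just inside the threshold. For Col19a1 and Col8a2 it was -3.70 and -1.91 (adjusted p = 0.119 and 0.119), and -2.49 (adjusted p = 0.106) and -1.26 (adjusted p = 0.124) without P28 Smo* replicate 3.

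Col22a1, a FACIT of tissue junctions, was called higher in both genotypes. It had 176, 249 and 97.3 in P28 Smo* libraries, against 45.4, 28.7 and 38.3 in P20 Smo* libraries, and 83.6, 107 and 142 in P28 WT libraries, against 29.4, 29.1 and 28.9 in P20 WT libraries, with no overlap in either (2.11 ± 0.35 (SE), adjusted p = 0.013 in Smo*, 1.86 ± 0.35 (SE), adjusted p = 0.00249 in WT). Col4a4 likewise was called in both (1.23 in Smo* and 1.02 in WT, adjusted p = 0.0341 and 0.0158). Col11a1, a fibrillar chain that nucleates thin fibrils, had 6378, 7009 and 9784 in P28 WT libraries, against 787, 1265 and 3057 in P20 WT libraries (2.39 ± 0.51 (SE), adjusted p = 0.00527), beside 0.90 ± 0.51 (SE), adjusted p = 0.314 in Smo*, and 1.52 (adjusted p = 0.0573) in Smo* without P28 Smo* replicate 3. Its Smo* effect at P28 was -0.31 with all libraries and 0.30 (adjusted p = 0.44) without that replicate, so its sign turned, and neither value passed the test. Its difference between the ages was -1.48 with all libraries and -0.87 (adjusted p = 0.421) without that replicate. Col12a1 was higher at P28 in WT (1.29 ± 0.19 (SE), adjusted p = 5.81e-04), as were Col4a1 and Col4a2 (0.72 and 0.89, adjusted p = 0.041 and 0.00445) and Col15a1, the multiplexin with the highest level, at 0.67 (adjusted p = 0.024). Col10a1, Col13a1, Col24a1, Col25a1 and Col26a1 complete the 16, with fold changes of 1.59, 1.19, 1.94, 1.91 and 2.02.

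The 8 genes lower in P28 WT included Col4a6 (-1.97 ± 0.27 (SE), adjusted p = 3.58e-04), Col7a1 (-1.77 ± 0.29 (SE), adjusted p = 0.00109) and Col27a1 (-1.79 ± 0.26 (SE), adjusted p = 4.79e-04), a fibrillar chain of cartilage. Col27a1 had 519.7, 613 and 551 in P28 WT libraries, against 2439, 1854 and 1625 in P20 WT libraries, and in Smo* libraries 786, 880.1 and 643 at P28 and 1732, 953 and 2241 at P20 (-1.02 ± 0.26 (SE), adjusted p = 0.0522). The others were Col5a1, Col6a1, Col6a2, Col9a3 and Col16a1, with fold changes of -0.87, -0.78, -0.73, -1.78 and -0.85. In Smo* libraries the same 5 stood at 0.27, 0.32, 0.26, 0.56 and 0.32, none called (adjusted p = 0.262 to 0.546).

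The further calls in Smo* libraries were higher at P28. Col6a4 (4.17 ± 0.66 (SE), adjusted p = 0.0124), Col6a5 (1.94 ± 0.46 (SE), adjusted p = 0.0421), Col5a3 (0.97 ± 0.22 (SE), adjusted p = 0.0384) and Col4a5 (0.98 ± 0.21 (SE), adjusted p = 0.033) made up this set. Col6a5, a chain of skin, had 1596, 4174 and 1159 in P28 Smo* libraries, against 571, 454 and 521 in P20 Smo* libraries. Of these 4 genes, Col4a5 alone was called for the difference of the Smo* effect between P28 and P20. All 6 calls in Smo* were lost without P28 Smo* replicate 1, 4 without P20 Smo* replicate 3, 3 without P20 Smo* replicate 1, P20 Smo* replicate 2 or P28 Smo* replicate 2, and 1 without P28 Smo* replicate 3, and the count ran from 0 to 11. The WT count ran from 18 to 22 with each library left out.

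**Figure D5:**
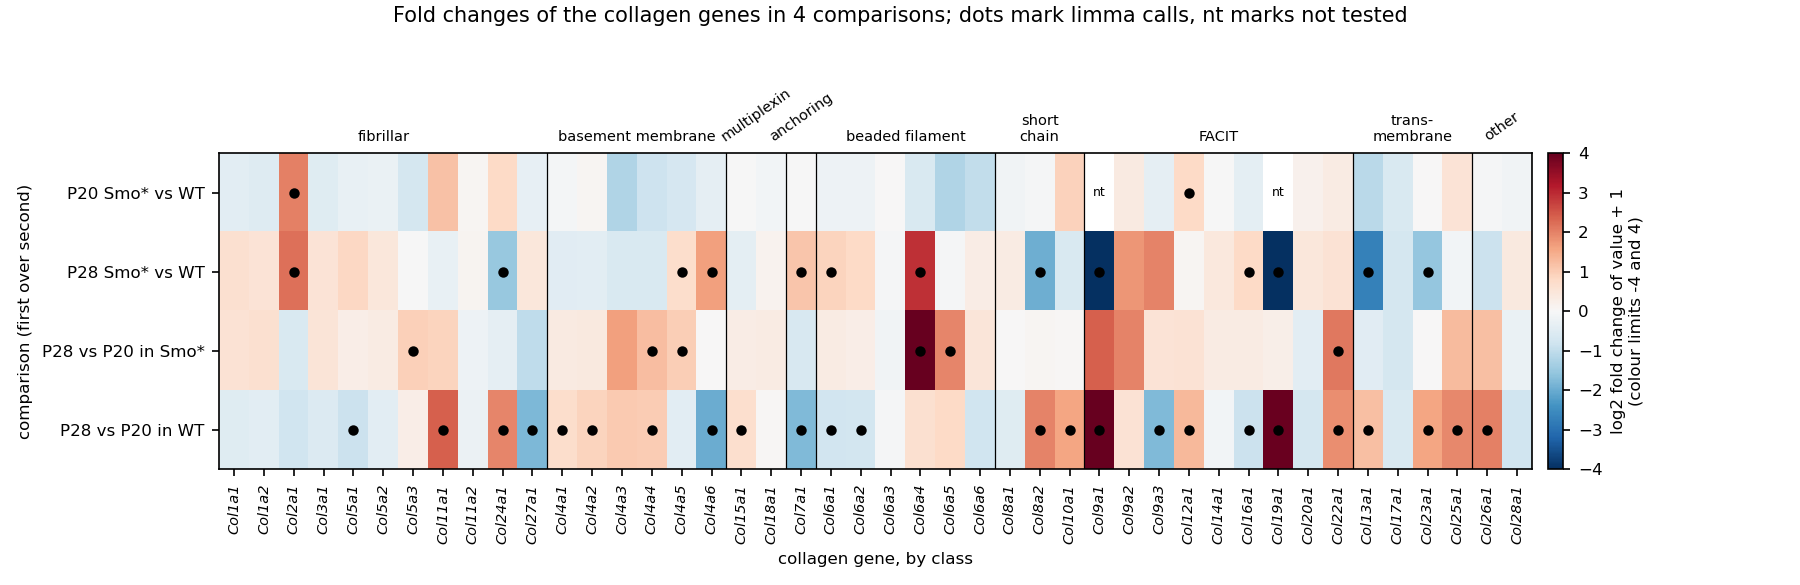
Fold changes of the 44 collagen genes, by class, in 4 comparisons, as log2 differences of normalized count plus 1 (red, higher in the group named first; blue, lower; colours end at -4 and 4). Black dots mark limma calls; Col9a1 and Col19a1 were not tested at P20. The fewest dots are in P20 Smo* vs WT, with 2, and the most in P28 vs P20 in WT, with 24.

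A total of 15 collagen genes were called in none of the 5 comparisons. These were Col1a1, Col1a2, Col3a1, Col5a2 and Col11a2 among the fibrillar genes, Col4a3, Col6a3, Col6a6, Col8a1, Col9a2, Col14a1, Col17a1, Col18a1, Col20a1 and Col28a1. Without P28 Smo* replicate 3, Col9a2 was called in 3 of the 5, at 2.55 (adjusted p = 0.00217) for Smo* against WT at P28, 2.18 (adjusted p = 0.0208) for the difference of that effect between the ages and 2.77 (adjusted p = 6.39e-04) for P28 against P20 in Smo*. With all libraries these were 1.76, 1.40 and 1.98 (adjusted p = 0.125, 0.316 and 0.0618). Col4a3 was also called without that replicate, for P28 against P20 in Smo*, at 1.91 (adjusted p = 0.0318). With all libraries its value there was 1.65 (adjusted p = 0.0546). Col14a1, a FACIT of dermal fibrils, had 49167, 45118 and 51479.8 in P28 Smo* libraries, against 44685, 29539 and 35515 in P28 WT libraries (0.43 ± 0.19 (SE), adjusted p = 0.207). Col18a1, the source of endostatin, had 13258, 11717 and 15474 in P28 Smo* libraries, against 14028, 12045 and 10824 in P28 WT libraries (0.13 ± 0.16 (SE), adjusted p = 0.628), and its 12 libraries spanned 9822 to 15474. The genes nearest to the threshold at P28 were Col8a2 on the called side (adjusted p = 0.0453) and Col9a3 on the other (0.0522).

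The other leading members of each class are given here in all libraries. Col15a1, a proteoglycan that links basement membrane to fibrils, had 60583, 62931 and 41891 in P20 Smo* libraries, against 53044, 56984 and 56158 in P20 WT libraries, and 65069, 81812 and 56686 in P28 Smo* libraries, against 85353, 79487 and 101637 in P28 WT libraries. Col10a1, the network collagen of hypertrophic cartilage, had 36.1, 39.2 and 20.1 in P20 Smo* libraries, against 15.8, 10.4 and 23.1 in P20 WT libraries, and 27.5, 31.3 and 37.4 in P28 Smo* libraries, against 52.9, 73.6 and 30.4 in P28 WT libraries, low in every library. Col8a1, the partner chain of Col8a2, had 779, 846 and 663 in P20 Smo* libraries, against 835, 752 and 927 in P20 WT libraries, and 1193, 530.1 and 692 in P28 Smo* libraries, against 709, 426 and 723 in P28 WT libraries. None of these 3 was called between Smo* and WT at either age, and their groups overlapped. Col26a1 had 179.7, 214 and 202 in P20 Smo* libraries, against 158, 229 and 237 in P20 WT libraries, and 536, 668 and 272 in P28 Smo* libraries, against 658, 719 and 1236 in P28 WT libraries, and its P28 values exceeded its P20 values in every library. Col28a1, a beaded-filament-like collagen of peripheral nerve, had 98.1, 68.8 and 78.5 in P20 Smo* libraries, against 73.5, 81.2 and 121 in P20 WT libraries, and 78.2, 58.8 and 66.3 in P28 Smo* libraries, against 84.5, 34.4 and 47.0 in P28 WT libraries. Col25a1, a membrane collagen of neurons and muscle, had 31.0, 23.5 and 23.7 in P20 Smo* libraries, against 26.0, 12.5 and 16.4 in P20 WT libraries, and 115, 63.5 and 34.2 in P28 Smo* libraries, against 64.0, 65.3 and 76.4 in P28 WT libraries, and Col17a1 had 137, 88.0 and 44.7 in P20 Smo* libraries, against 129, 98.9 and 158 in P20 WT libraries, and 69.4, 36.0 and 50.3 in P28 Smo* libraries, against 101, 122 and 44.2 in P28 WT libraries.

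Col6a6, a long type VI chain, had 3093, 2877 and 1588 in P20 Smo* libraries, against 6630.1, 3936 and 4251 in P20 WT libraries, and 2811, 4267 and 3288 in P28 Smo* libraries, against 3748, 2280.4 and 2491 in P28 WT libraries, with Smo* below WT at P20 and overlapping groups at P28. Col6a5 at P20 had 3 lower values in Smo* than in WT, with 579, 1673 and 1666 in P20 WT libraries, and at P28 it had 2760.0, 1788 and 1772 in WT. Col4a4 had 447, 321 and 385 in P20 Smo* libraries, against 924, 652 and 504 in P20 WT libraries, and 1282, 597 and 937 in P28 Smo* libraries, against 1538, 1187 and 1383 in P28 WT libraries, with Smo* below WT at P20. Col4a2 at P20 had 32798, 27057 and 44169 in P20 Smo* libraries, against 26068, 34725 and 37591 in P20 WT libraries, and Col9a3 57.8, 15.7 and 49.3 in P20 Smo* libraries, against 46.3, 57.2 and 36.6 in P20 WT libraries, both overlapping.

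Of the genes that modify, process and bind collagens, 0 of 65 tested were higher and 2 lower in P20 Smo* (3.08% called, against 0.696% of all genes, 0.212% lower). These were Itga2, a collagen receptor chain, with 144 ± 14.1 in Smo* and 332 ± 12.6 in WT libraries (SD, n = 3 each, fold change -1.20 ± 0.16, adjusted p = 0.0225), and Dpt, a fibril-binding matrix protein, with 14958 ± 318 and 26079 ± 1130.4 (-0.80 ± 0.10, adjusted p = 0.0184). The median fold change of the 65 was -0.22, with 52 below 0, beside 0.0025 over all genes tested.

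At P28, 2 of 64 were higher and 2 lower (6.25% called, against 8.9% of all genes, 4.05% higher and 4.85% lower). The higher ones were Adamts14, an enzyme that trims procollagen ends, with 1442 ± 374 in Smo* and 708 ± 114 in WT libraries (1.01 ± 0.21, adjusted p = 0.0253), and Postn, a fibril-organizing protein, with 96609 ± 6731 and 45064 ± 10685 (1.13 ± 0.23, adjusted p = 0.022). The 2 lower genes were Loxl3, a lysyl oxidase that cross-links collagen, with 1345 ± 253 in Smo* and 2279 ± 86.2 in WT libraries (-0.78 ± 0.15, adjusted p = 0.017), and Itga1, another collagen receptor chain, with 1199 ± 461 and 2724 ± 321 (-1.25 ± 0.27, adjusted p = 0.0263). The median of the 64 was 0.24, with 46 above 0, beside -0.01 over all genes tested. None of the 15 genes of proline and lysine modification was called at either age. The 10 keratinocyte markers summed to 332 to 557 in P28 Smo* and 980 to 1197 in P28 WT libraries. At P20 they summed to 400 to 698 in Smo* and 587 to 1651 in WT libraries. None of those tested was called between Smo* and WT at either age. Krt14 ran from 0 to 37.5 in P28 Smo* and from 20.3 to 119 in P28 WT libraries. The part of these markers in the collagen values was not tested.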

How the data were processed

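Per the labels' protocols, libraries that mark strand were made after ribosomal depletion of 100 ng RNA of FACS-sorted cells. The submitters' processing notes name TopHat2, HTSeq, DESeq2, Trimmomatic and the builds GRCm38.p4 and mm10, without roles.

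The 2 deposited tables hold a normalized count (a signal) for 25887 genes, made by the authors with 1 size factor per library over all 12 libraries, read from the values: 100% were whole reads within 0.01 after division by the step. The deposited log2 fold change (WT over Smo*) and its error, the score of the authors' test and the deposited p-value and adjusted p-value were used only as an alternative.

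Symbols came from a table of gene names (98.7% of identifiers matched) and coordinates from a GENCODE annotation of GRCm38. The 44 genes, the classes and the 69 pathway and the marker genes were chosen with earlier results of these data known. limma 3.58.1 (R 4.3.3, mean-variance trend) was fitted to log2(value + 1) of genes with a mean of at least 10, at each age on 6 libraries, and on 12 libraries for the age comparisons and the interaction, with Benjamini-Hochberg adjustment at 0.05 over all genes. Shares and chain ratios had two-sided exact permutation tests. The test of their difference between ages was added with results known. The code was tested on simulated data. Replicates of 1 group differed well beyond sampling noise (chi-square per gene 38.5 to 155.5). Values are given in every library for genes called between genotypes or in the interaction, for the 3 most abundant genes and for up to 2 further members of each class with the smallest adjusted p. Pathway genes called between genotypes are named. edgeR 4.0.16 and DESeq2 1.42.0 on the recovered reads, other scalings, filters and pseudocounts and leaving out each library were alternatives, and levels per longest coding transcript were added after merged exons proved uneven. Values without P28 Smo* replicate 3 for genes not called were also chosen after seeing the data. Replicates are numbered in accession order only. 0 columns were left out.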

Additional observations from a re-analysis of the deposited data

Results flagged for a closer look

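Each result here differed between the 2 ages by a test of the difference itself (Smo* minus WT at P28, less Smo* minus WT at P20). By limma's interaction term the log2 difference was 1.98 for Col4a6, 1.39 for Col4a5, 1.16 for Col16a1, 1.10 for Col6a1, 0.9957 for Col6a2, -1.63 for Col13a1 and -5.80 for Col9a1. The share of reads on collagen genes differed by 15.1 percentage points between the ages. The log2 ratio of Col5a1 to Col5a2 differed by 0.41 and that of Col6a3 to Col6a1 by -1.17, and both exact permutation p-values became 0.06 after adjustment over 6 ratios. Sex varies with age, and stage with genotype at P28, so their parts cannot be told apart.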

How the results depend on the processing

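The count of collagen genes called at P20 (2) was 1 with quantile normalization, 1 without a filter, 1 with limma on all 12 libraries, 0 with a mean of at least 50, 0 without the variance trend, 0 with edgeR, 11 with DESeq2 and 4 in the authors' deposited table. At P28 (13) it was 6 without the variance trend, 21 with DESeq2 and 20 in the authors' deposited table. For the difference of the Smo* effect (7) it was 3 without the trend and 18 with DESeq2, and for P28 against P20 in Smo* (6) it was 2 without the trend, 10 with edgeR and 16 with DESeq2. With each library left out the counts ranged from 0 to 2 at P20, 3 to 14 at P28, 1 to 9 for the difference, 0 to 11 for P28 against P20 in Smo* and 18 to 22 for WT (24). The causes were not tested.

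Quantile normalization turned the P20 fold change of Col6a1 to 0.060 and of Col6a2 to 0.0026. The collagen share at P20 turned to 0.121 points without Col1a1, Col1a2 and Col3a1. With 1 library left out, log2 chain ratio differences near 0 changed sign, ranging from -0.022 to 0.039 for Col6a1/Col6a2 and from -0.38 to 0.31 for Col8a1/Col8a2 at P20, and from -0.012 to 0.18 for Col1a1/Col1a2 and from -0.056 to 0.027 for Col4a1/Col4a2 at P28. Of the other settings for results that answer a comparison, 161 left the result much the same, 34 moved it and 11 reversed its sign. For shares and chain ratios only the direction was judged, and for counts of called genes only the size of the count. The side of the threshold was not part of this comparison. No scaling moved the median of all genes by 0.1.

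The labels state no pairs. A replicate block of libraries with the nearest title numbers called 3 genes at P20 and 9 at P28, and deviations of such pairs correlated at 0.12, 0.22 and 0.27 at P20 and at 0.19, -0.06 and -0.03 at P28. With 3 libraries a group, exact tests cannot go below p = 0.1 within an age. Genes with few reads, such as Col9a1 and Col19a1 at P20, are limited by counting error.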
